A study of Mus musculus with 6 samples.

Results

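A set of 10 genes was examined because the log2 differences of their 2 brightest probe sets had opposite signs when RNA bound to HuD was compared with the background of control beads. In Brwd1, Nip7 and Sod2 the lower of these did not pass the test, and in Sod2 its sign was not firm. They were the cytoskeletal genes Actb and Map4, the translation and ribosome genes Eif1ax and Nip7, the RNA methylation and chromatin genes Wtap and Brwd1, the signalling and cilium genes Prkar1a and Bbip1, and the mitochondrial genes Sod2 and Slc25a12. A probe set is a group of short probes on the array that together read one stretch of a transcript, and many genes have more than one. The members were given by name from 18193 genes with a single symbol, 9010 of which had at least 2 probe sets, and they carried 32 probe sets besides 3 array controls for Actb. For each gene the 2 brightest probe sets by mean signal over all arrays formed its pair, and array controls were not counted in choosing them. The genes were chosen on the difference between these same arrays, so their values below are a description, and their counts are set beside those of all pairs without a test of their own.

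The RNA came from mouse hippocampus. Per the labels, 3 arrays read RNA immunoprecipitated with anti-myc antibodies to transgenic HuD, which implies a myc tag on it. Control protein-G beads bearing non-immune IgG supplied 2 arrays, and unfractionated input supplied 1. The promoter of the transgene, the age and number of the mice, and whether transgenic mice also gave the IgG and input samples are details that the sources used here do not give. The labels do not say that arrays of a group came from separate animals, so errors and p-values reflect array-to-array spread alone, possibly technical. In the input array the 4 neuron markers Snap25, Syt1, Rbfox3 and Stmn2 lay at or above the 93.4th percentile of genes. Of 6 markers of hippocampal neurons Camk2a, Wfs1 and Neurod6 lay at percentiles from 87.1 to 93.5, Neurod2 at 68.0, Zbtb20 at 64.1 and Prox1, a marker of granule neurons, at 22.6. Ttr, the main transcript of the choroid plexus, was among the brightest genes of the input, with Kcnj13 at the 68.6th percentile and Folr1 at the 41.8th. Glial markers spanned a wide range there. The highest of each list were the myelin gene Mbp at the 100th percentile, the astrocyte gene Aldoc at 99.3 and the microglial gene Csf1r at 97.8. The lowest were the myelin gene Mog at 63.0, the astrocyte gene Gfap at 82.8 and the microglial gene Aif1 at 37.2. Between HuD and IgG 0 of 10 tested glial markers rose and 5 fell (Gfap, Aldoc, Mobp, C1qa and Csf1r), where 16.1% of all genes rose and 28.4% fell. Neuronal markers were called in both directions. Snap25 (0.84) and Neurod2 (0.83) rose, and Zbtb20 (−1.59) and the interneuron markers Gad1 (−1.43) and Sst (−1.52) fell. Zbtb20 had 1126.2 and 733.3 on the IgG arrays, and its HuD signals (366.0, 198.1 and 302.6) were above the input (169.1). The summed signal of the 11 measured glial markers was 13792.9 to 18586.2 on the HuD arrays, 22998.9 and 32898.1 on the IgG arrays and 23049.5 in the input. A large part of it was Mbp, whose change did not pass (−0.55). Mbp had 9976.0, 8405.4 and 12432.2 on the HuD arrays, 11900.6 and 18606.0 on the IgG arrays and 9266.1 in the input. The part of these markers in the differences below was not tested.

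HuD is encoded by Elavl4 and belongs to the neuronal ELAV proteins, which bind U-rich and AU-rich stretches, most of them in the 3′ untranslated regions of mRNAs. Many mammalian genes end their transcripts at more than one cleavage and polyadenylation site, which gives mRNAs with the same coding sequence and a shorter or longer 3′ untranslated region, and neurons are known for long ones. ELAV proteins are also known to take part in the choice between such sites. Probe sets that lie on either side of an inner site can therefore read different mRNAs of 1 gene. The positions of the probes within the transcripts were not used here, so whether the probe sets of a pair read different 3′ ends was not tested.

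In all 10 genes the pair divided HuD arrays from IgG arrays. The probe set that was higher with HuD rose by 1.24 to 2.84 on the log2 scale against IgG, while its partner differed by −0.02 to −3.22. The pair difference, defined as the log2 change of the brightest minus that of the second probe set between HuD and IgG, was between 2.705 and 4.82 in absolute value, with a median of 3.08. Over the 4913 genes with both probe sets past the filter on dim signals, the median absolute pair difference was 0.45, and 90% of genes lay below 1.33. All members were among the 33 largest absolute pair differences, a consequence of how they were chosen. Signals are relative to the other RNA on an array, so a lower one with HuD is a smaller share of the RNA recovered. In these bulk preparations the number of cells holding an RNA and its amount per cell cannot be told apart.

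**Figure D1:**
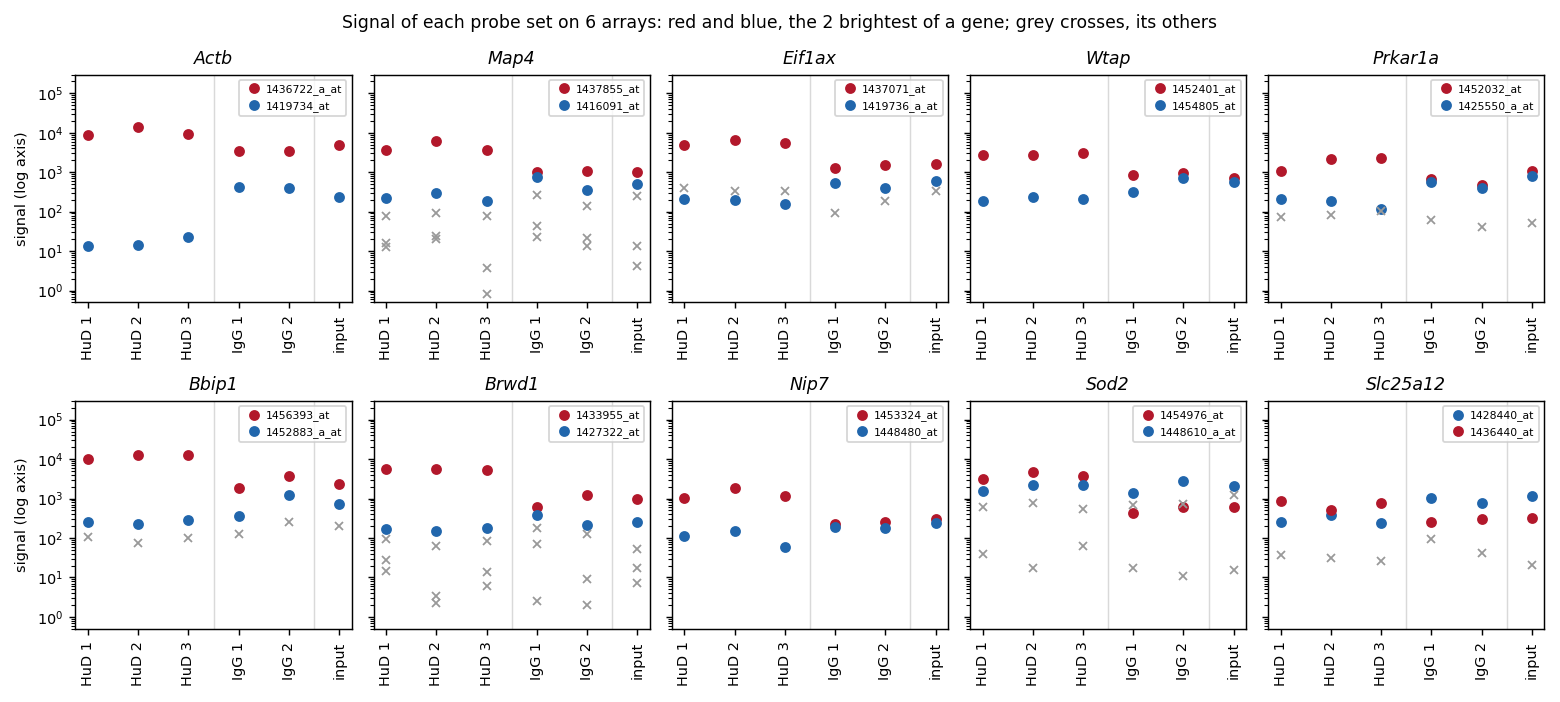
Signal of every probe set of the 10 genes on each of the 6 arrays, on a log axis, 1 panel per gene. Red points are the probe set of the pair that was higher with HuD, blue points its partner, and grey crosses the remaining probe sets; red points of the HuD arrays stand above those of the IgG arrays in each panel, and blue points of the HuD arrays stand below in each panel except Sod2.

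Actb encodes cytoplasmic beta-actin, whose mRNA is transported into neurites and growth cones, and it had the widest split of the set. Probe set 1436722_a_at had signals of 8680.1, 14296.7 and 9397.3 on HuD arrays 1, 2 and 3, 3396.1 and 3476.1 on IgG arrays 1 and 2, and 4774.9 in the input. Probe set 1419734_at had signals of 13.3, 14.0 and 22.6 on the HuD arrays, 434.2 and 402.6 on the IgG arrays, and 242.4 in the input. The first was thus higher on every HuD array than on any other array, and the second nearly vanished there. Its HuD signals were below the median of their arrays (20.3, 23.2 and 24.4), at the dim end where log2(signal + 32) understates a change. On that scale the probe sets changed by 1.61 ± 0.26 and −3.22 ± 0.25 against IgG (± is the standard error of the log2 difference here and below). The pair difference was 4.82 ± 0.37, and 5.36 or 4.18 with a pseudocount of 16 or 64, so its size rests on how the dim HuD signals are treated.

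Actb also has 3 control probe sets on the array, whose names place them at the 3′ end, the middle and the 5′ end of the transcript. The 3′ control had signals of 12363.7, 18587.1 and 14887.6 on the HuD arrays, 5642.0 and 5808.1 on the IgG arrays, and 6812.1 in the input. The middle control had 4268.3, 8205.6 and 3454.0, against 828.6 and 568.7 on IgG and 1783.9 in the input. The 5′ control had 803.7, 3348.0 and 476.6, against 315.8 and 168.7 on IgG and 575.2 in the input. All 3 were higher on each HuD array than on each IgG array, by 1.39, 2.79 and 2.09 on the log2 scale, so that 1419734_at alone of 5 Actb probe sets was lower. Had the controls been counted in choosing the pair, the brightest would have been the 3′ control and 1436722_a_at, which moved together, with a pair difference of −0.215. The ratio of the 3′ to the 5′ control, a usual sign of RNA integrity, was 15.4, 5.55 and 31.2 on the HuD arrays, 17.9 and 34.4 on the IgG arrays and 11.8 in the input. These ratios overlapped between the groups, and for Gapdh they were 14.7, 10.4 and 16.4 with HuD, 11.5 and 18.6 with IgG and 8.27 in the input. The ratio of the 3′ to the middle control of Actb did not overlap, at 2.90, 2.27 and 4.31 with HuD, 6.81 and 10.2 with IgG and 3.82 in the input. For Gapdh that ratio did overlap between HuD and IgG, at 3.66, 3.46 and 4.38 with HuD and 2.80 and 4.96 with IgG, and it was 1.64 in the input. Their part in the pair differences was not tested.

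**Figure D2:**
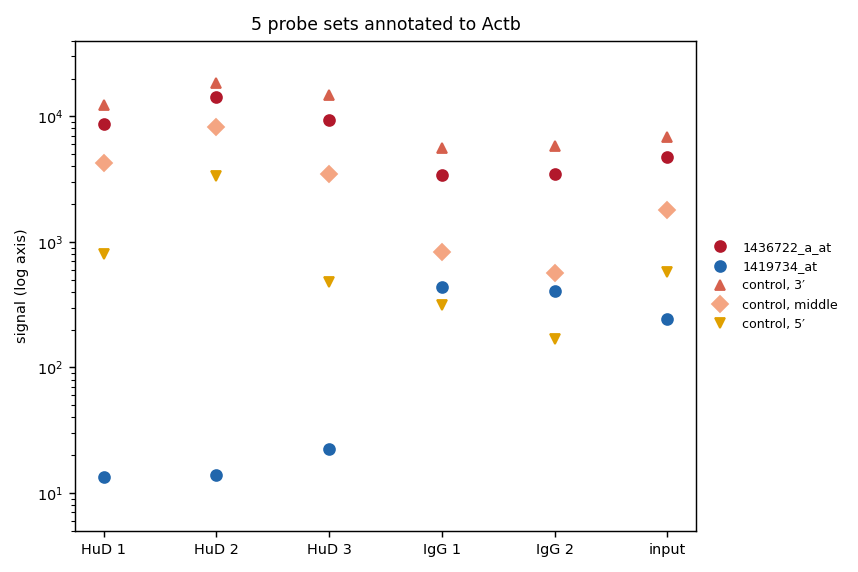
Signal of the 5 probe sets annotated to Actb on each array, on a log axis, with the array controls as triangles and diamonds and the other probe sets as circles. The 1419734_at signals lie at 13.3 to 22.6 on the HuD arrays and at 242.4 or more elsewhere, while the other 4 are higher on the HuD than on the IgG arrays.

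Map4, a microtubule-associated protein of many cell types, had 5 probe sets. Probe set 1437855_at gave 3605.0, 6165.7 and 3744.6 with HuD, 997.1 and 1068.5 with IgG, and 1028.6 in the input. Its partner 1416091_at gave 226.0, 289.7 and 188.3 with HuD, 776.8 and 348.3 with IgG, and 491.0 in the input. HuD and IgG arrays did not overlap in either, and the log2 changes were 2.05 ± 0.29 and −1.07 ± 0.34, a pair difference of 3.12 ± 0.39. Probe set 1416092_a_at, next in brightness, followed the lower one (−0.99 ± 0.285), and the remaining 2 were too dim to be tested. The size of the fall rested on the IgG arrays, being −0.53 without IgG array 1 and −1.62 without IgG array 2.

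Eif1ax encodes eIF1A, a factor of the scanning ribosomal subunit. Its probe set 1437071_at gave 4962.7, 6619.5 and 5538.4 with HuD, 1268.9 and 1543.1 with IgG, and 1615.5 in the input. Probe set 1419736_a_at gave 204.5, 198.9 and 156.7 with HuD, 524.7 and 402.2 with IgG, and 593.7 in the input. All HuD arrays were above all others in the first and below all others in the second, with changes of 1.99 ± 0.25 and −1.18 ± 0.27 and a pair difference of 3.17 ± 0.345. The remaining probe set, 1449576_at, was higher with HuD than with IgG (1.23 ± 0.30) and differed by 0.085 ± 0.38 from the input, which did not pass. Its signals were 395.6, 335.7 and 330.5 with HuD, 91.1 and 187.7 with IgG, and 330.7 in the input.

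Nip7, a nucleolar factor of large ribosomal subunit assembly, had only the pair. Probe set 1453324_at gave 1057.1, 1903.3 and 1159.0 with HuD, 220.2 and 249.5 with IgG, and 295.7 in the input, a change of 2.35 ± 0.30. Probe set 1448480_at gave 114.3, 147.9 and 57.9 with HuD, 185.5 and 179.6 with IgG, and 238.4 in the input. Its HuD arrays were all below the IgG arrays, yet the difference of −0.69 ± 0.31 did not pass the threshold. The pair difference was 3.04 ± 0.33, and it came chiefly from the rise of the first probe set.

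Wtap, a subunit of the enzyme complex that writes N6-methyladenosine into mRNA, also had 2 probe sets. Probe set 1452401_at gave 2713.9, 2719.1 and 3116.1 with HuD, 832.8 and 947.8 with IgG, and 714.6 in the input. Probe set 1454805_at gave 190.9, 233.2 and 207.8 with HuD, 306.9 and 721.0 with IgG, and 575.6 in the input. The HuD arrays lay apart from the others in both, and the IgG arrays of the second lay far from each other. Changes were 1.64 ± 0.25 and −1.06 ± 0.33, with a pair difference of 2.705 ± 0.35. The fall was −0.485 without IgG array 2 and −1.64 without IgG array 1.

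Brwd1 encodes a chromatin protein with bromodomains and WD repeats. Its probe set 1433955_at gave 5498.7, 5672.9 and 5435.2 with HuD, 597.3 and 1254.1 with IgG, and 955.3 in the input, a change of 2.63 ± 0.305. Probe set 1427322_at gave 173.3, 152.6 and 184.4 with HuD, 384.9 and 217.6 with IgG, and 254.6 in the input. HuD arrays were below the rest, but the difference of −0.68 ± 0.29 did not pass the threshold, nor did that of another probe set (−0.69 ± 0.26). Without IgG array 2 the second probe set of the pair was at −1.05 and passed, and without IgG array 1 it was at −0.31. The pair difference was 3.31 ± 0.47, and 2 more probe sets were too dim to be tested.

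Prkar1a encodes the type I-alpha regulatory subunit of protein kinase A, which holds the catalytic subunits inactive until cyclic AMP binds. Probe set 1452032_at gave 1052.1, 2191.6 and 2300.3 with HuD, 693.8 and 475.6 with IgG, and 1048.0 in the input. Probe set 1425550_a_at gave 207.7, 191.4 and 115.6 with HuD, 568.0 and 400.3 with IgG, and 796.2 in the input. HuD and IgG arrays did not overlap in either, although HuD array 1 (1052.1) barely exceeded the input (1048.0) in the first. The changes against IgG were 1.55 ± 0.35 and −1.35 ± 0.30, with a pair difference of 2.905 ± 0.46. Its remaining probe set differed by 0.50 ± 0.255 and did not pass.

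Bbip1 is a small subunit of the BBSome, the coat complex that carries membrane proteins to and from cilia. Probe set 1456393_at gave 10192.6, 12953.6 and 12479.5 with HuD, 1854.8 and 3680.3 with IgG, and 2340.3 in the input, among the brightest signals of the set. Probe set 1452883_a_at gave 258.3, 220.8 and 285.8 with HuD, 365.2 and 1254.4 with IgG, and 723.5 in the input. Every HuD array was above the others in the first and below them in the second. The changes were 2.16 ± 0.295 and −1.32 ± 0.41, with a pair difference of 3.485 ± 0.36. The fall was −2.17 without IgG array 1 and −0.475 without IgG array 2, and the remaining probe set was at −0.76 ± 0.30, short of the threshold. In the RefSeq gene table of GRCm38.p6, used for neighbourhood only, Bbip1 overlaps Shoc2, a scaffold of Ras signalling, and the translation inhibitor Pdcd4. Their brightest probe sets changed by 3.06 ± 0.29 and 0.79 ± 0.29 (limma, adjusted p = 0.000156 and 0.0455). Whether 1456393_at reads RNA of the overlapping gene was not tested.

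Sod2, the mitochondrial manganese superoxide dismutase, had no second probe set that moved clearly the other way. Probe set 1454976_at gave 3192.2, 4646.0 and 3832.8 with HuD, 423.1 and 608.8 with IgG, and 617.1 in the input, a change of 2.84 ± 0.28. Probe set 1448610_a_at gave 1565.3, 2205.2 and 2248.8 with HuD, 1418.8 and 2838.5 with IgG, and 2115.9 in the input. The groups overlapped in it, and its difference of −0.02 ± 0.32 had no firm sign, being 0.30 after centring the arrays on their 75th percentile and ranging from −0.51 to 0.47 with single arrays left out. The other probe sets were at −0.14 ± 0.26 and 0.58 ± 0.28, neither past the threshold. The pair difference of 2.86 ± 0.25 was thus that of 1 rising probe set beside 3 that did not pass, and it was 0.12 for the pair brightest on the input array, which leaves 1454976_at out. In the same gene table Sod2 and Wtap are neighbours, and each had 1 probe set that was higher with HuD.

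Slc25a12 encodes the aspartate-glutamate carrier of the inner mitochondrial membrane, part of the malate-aspartate shuttle, and was the only member whose brightest probe set was the lower one. Probe set 1428440_at gave 261.2, 371.8 and 235.8 with HuD, 1021.5 and 776.7 with IgG, and 1162.1 in the input. Probe set 1436440_at gave 889.7, 525.9 and 777.2 with HuD, 258.4 and 310.3 with IgG, and 325.0 in the input. HuD arrays lay below all others in the first and above all others in the second, and the changes were −1.54 ± 0.285 and 1.24 ± 0.29. The pair difference was −2.79 ± 0.38. Its remaining probe set differed by −0.605 ± 0.27 and did not pass.

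Counted over the set, 10 of 10 pairs were called divergent between HuD and IgG in the fit of pair differences, against 17% of all 4913 pairs. A higher call on 1 probe set and a lower call on the other occurred together in 7 genes, against 1.63% of all pairs, and opposite signs occurred in 24.5% of all pairs. The exceptions were Brwd1, Nip7 and Sod2, whose second probe set did not pass. HuD and IgG arrays did not overlap in the pair difference of any member, which held for 46.6% of all pairs. Of all probe sets tested 14.7% were called higher and 26% lower. The members were chosen on this contrast, and nothing is read from these shares.

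**Figure D3:**
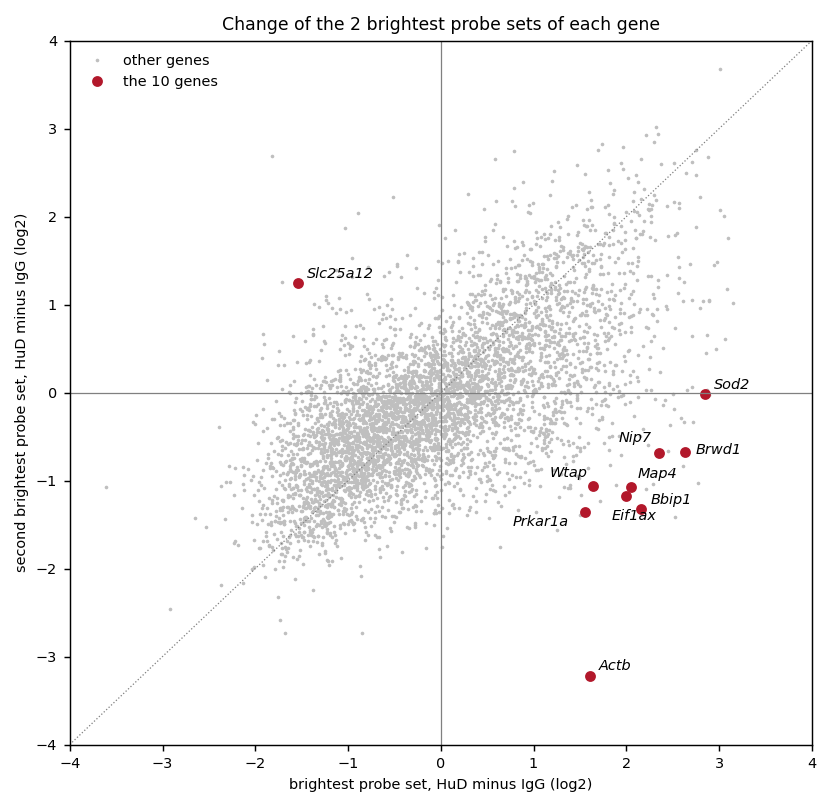
Log2 change between HuD and IgG of the brightest probe set (horizontal) and of the second brightest (vertical) for the 4913 genes with both past the filter, with the 10 genes in red. Most genes lie along the dotted line of equal change; Slc25a12 lies at upper left, Sod2 on the horizontal line at −0.02, and the other 8 at lower right, with Actb lowest at −3.22.

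Signs of single probe sets depend on how the arrays are put on a common level, while a shift of a whole array on the log2 scale cancels in a pair difference. The median of all tested probe sets was −0.26 between HuD and IgG, and relative to it Sod2's second probe set was higher rather than lower. Called probe sets were higher in 36.1% as deposited, in 51.7% after quantile normalization and in 63.2% after centring on the 75th percentile. With that centring the calls of the lower probe sets of Map4 (−0.76), Wtap (−0.745) and Bbip1 (−1.01) were lost, leaving 4 genes with opposite calls. Quantile normalization removed the call of Wtap (−0.90), leaving 6 genes, and testing without a filter removed those of Map4, Wtap and Bbip1. The same 3 also lost them when single arrays were left out. For Wtap this happened without any 1 of the 3 HuD arrays (−1.002, −1.13 and −1.055) or IgG array 2. Map4 lost its call when HuD array 1 (−1.06), HuD array 3 (−0.945) or the first IgG array was dropped. Bbip1 lost it when HuD array 1 (−1.335), HuD array 2 (−1.235) or the second IgG array was dropped. The pair differences of all 10 genes remained called divergent with each HuD or IgG array left out.

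Over all genes the count of divergent pairs between HuD and IgG was 833, of which the brighter probe set was the higher one in 504. It fell to 400 without HuD array 1 and to 450 without HuD array 3. Pairs with opposite calls numbered 80 (56 with the brighter one higher), and 24, 43 and 33 without HuD array 1, 2 and 3. The pair was chosen by the mean over 6 arrays, of which 3 were HuD. Chosen on the input array instead, the pair difference of every member but Sod2 kept the same value, which says nothing on stability. That of Sod2 lost its call (0.116).

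The arrays carry a title suffix, le1 on HuD array 1, IgG array 1 and the input and e1_le1 on the others, whose meaning the sources used here do not give. HuD and IgG arrays did not overlap in the pair difference of any member, so its sign within a suffix was fixed in advance and nothing is read from it. The pair differences between HuD and IgG were 1.90 to 4.71 in size within le1 and 2.27 to 4.84 within e1_le1. The smallest were those of Prkar1a within le1 (1.90) and of Slc25a12 within e1_le1 (−2.27). Brwd1 differed most between the suffixes, at 4.16 and 2.44.

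Against the input, which had 1 array and was assumed to vary like the others, the members split in the same directions. This comparison shares the HuD arrays with the one above and is given side by side, not as further support. The higher probe sets changed by 0.72 to 2.58, and 8 of 10 were called higher, against 9.75% of all probe sets. Their partners changed by −0.09 to −2.50, and 5 of 10 were called lower, against 15.6% of all. Signs were opposite in 10 of 10 pairs, against 26.9% of all pairs. Pair differences were 2.67 to 3.72 in absolute value, and 10 of 10 pairs were called divergent, against 7.45% of all pairs. Opposite calls occurred in 3 genes, Actb, Eif1ax and Wtap, against 0.611% of all pairs. The largest was Bbip1 (3.72 ± 0.45), followed by Actb (3.64 ± 0.47), whose difference against IgG was larger than against the input.

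The pair difference between IgG and input was at most 0.57 in size in 9 genes, for example 0.035 ± 0.44 for Nip7 and −0.13 ± 0.62 for Prkar1a. Actb was the exception at −1.185 ± 0.50. Among their 20 probe sets 0 were called higher and 0 lower between IgG and input by limma, against 0.235% and 0.00444% of all, and opposite signs occurred in 4 pairs, against 41.6% of all pairs. No member pair was called, as in 0% of all pairs, and 1 member passed at an unadjusted p of 0.05, against 482 of 4913 pairs. The median size was 0.19 in the set and 0.37 over all pairs. With so few arrays this comparison made almost no calls, and a missed call does not show equality.

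**Figure D4:**
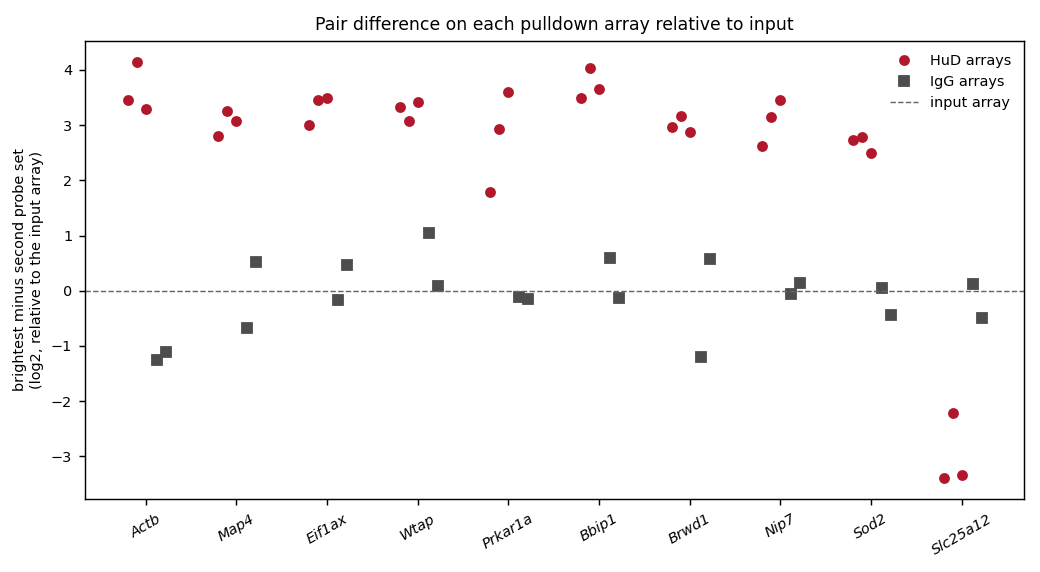
Log2 difference between the brightest and the second probe set of each gene on the pulldown arrays, relative to the same difference on the input array (dashed line at 0). The 3 HuD arrays (red circles) lie at 1.79 or more for 9 genes and at −2.21 or less for Slc25a12, and the 2 IgG arrays (grey squares) lie between −1.25 and 1.05.

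Some features that the choice of the members did not use were noticed after their values were seen. The annotation gives for most probe sets the identifier of a source sequence, whose kind was inferred here from the letters that open it. The kinds used were an expressed sequence tag (a single-pass read of a cDNA clone, often from its 3′ end) and a longer cDNA or curated mRNA. The probe set higher with HuD came from an expressed sequence tag in 9 of 10 genes, Wtap being the exception, and its partner from a cDNA in 6, from a tag in 3 and from an unlisted source in 1. Among the 7 members with 1 source of each kind, the one from the tag was the higher in 6. Over all 1265 such pairs it was the higher in 53.0% between HuD and IgG, with a median difference of 0.04 on the log2 scale (55.6% within le1 and 50.3% within e1_le1). Between IgG and input it was the higher in 67.3%, with a median of 0.22. In the 245 of these that were called divergent it was the higher in 64.5%, and in the 18 with opposite calls outside the set it was the higher in 10. The suffix _a_at, which marks probe sets shared by alternative transcripts of a gene, stood on 4 of the lower probe sets and on 1 of the higher. The shares of this suffix and of tag sources over all probe sets were not counted, so neither is read as a trait of the set. Of the 12 probe sets outside the pairs 8 were bright enough to be tested, of which 1 was called higher, 1 lower and 6 neither.

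Among the other genes the 6 widest splits with opposite signs were those of Mrpl57, Fgf14, Atg4c, Mrpl1, Ubfd1 and Rian. Mrpl57, a mitochondrial ribosomal protein, had probe sets at −1.82 and 2.69 between HuD and IgG (pair difference −4.51 ± 0.32, limma, adjusted p = 0.000186). Mrpl1, another, was at 2.61 and −0.84 (3.45 ± 0.38, adjusted p = 0.00113 with limma), and Ubfd1 was at 2.28 and −1.03 (3.32 ± 0.54). The fibroblast growth factor homologue Fgf14 (3.93 ± 0.36), the autophagy protease Atg4c (3.80 ± 0.54) and the noncoding RNA Rian (3.30 ± 0.51) also had opposite signs. Against the input, signs were again opposite in Mrpl57, Mrpl1 and Ubfd1, but both probe sets of Fgf14, Atg4c and Rian were higher with HuD. The second probe sets of Fgf14, Atg4c and Rian were at 1.23, 0.49 and 1.19 there, and both IgG arrays exceeded the input in them. The pair differences of Fgf14, Atg4c and Rian between IgG and input were −2.62 ± 0.48, −1.66 ± 0.72 and −1.83 ± 0.69. Those of Mrpl57, Mrpl1 and Ubfd1 were 1.54 ± 0.43, 0.15 ± 0.51 and −0.003 ± 0.73, and none of the 6 was past the threshold.

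Relatives of the 10 genes were read by their brightest probe set from lists of gene families. Of 42 tested, 10 rose (23.8%), 13 fell (31.0%) and 19 did not pass between HuD and IgG, where 16.1% of all genes rose and 28.4% fell. Their median log2 change was −0.115, and that of all genes was −0.29. The Arp2/3 subunit gene Actr3 rose (1.02) while Actg1, the other cytoplasmic actin, was at 0.28 and did not pass. Among microtubule-associated proteins Map1b rose (1.82) and Mapt (−1.62) and Map1a (−1.49) fell. In the eIF1 family Eif1a (1.64) and Eif1b (0.82) rose and Eif1ad fell (−1.26). Eif1a is a near-identical relative of Eif1ax, so its values are uncertain, and whether its probe sets also read Eif1ax was not tested.

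Partners of Wtap in the methylation complex were called in both directions. Zc3h13 (−1.95) and the catalytic subunit Mettl3 (−1.51) fell, Rbm15 rose (1.34), and 4 of 7 did not pass. The IgG arrays of Zc3h13 lay far apart, at 589.1 and 123.7, with 33.8, 97.8 and 29.6 on the HuD arrays and 58.2 in the input. Its difference between HuD and input was −0.16 and did not pass. Of 5 other protein kinase A subunits 3 rose, among them the catalytic Prkacb (1.57) and the regulatory Prkar2a (0.80), and Prkar1b fell (−1.21). In the BBSome Bbs1 rose (0.97) and Bbs4 (−1.415) and Bbs7 (−0.70) fell, with 3 of 6 not past the threshold. Brwd3 rose (1.33) and Phip was at −0.15. Of 8 genes of large subunit assembly 5 did not pass, and Pes1 (−1.08), Nop2 (−0.92) and Bop1 (−0.875) fell. The cytosolic dismutase Sod1 fell (−0.95), as did the glutamate carrier Slc25a18 (−1.20).

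Of the 25 relatives with a testable pair 5 were called divergent, 5 had opposite signs and 0 had opposite calls, beside 17%, 24.5% and 1.63% of all pairs. The widest was Map1b, at 1.82 and −0.66 (pair difference 2.47 ± 0.28, limma, adjusted p = 0.00112), and Eif1ad (−1.40 ± 0.24) and Nsa2 (1.45 ± 0.295), the latter named after its values were seen, were also called. Prkacb (1.42 ± 0.41) and Phip (1.33 ± 0.40) were called with both probe sets on the same side of 0.

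A list of 25 genes known for alternative 3′ ends was drawn up from general knowledge. Of 18 with a testable pair 3 were called divergent, 2 had opposite signs and 0 had opposite calls, beside 17%, 24.5% and 1.63% of all pairs. At an unadjusted p of 0.05 with limma, opposite calls again numbered 0 in the list, against 138 of all 4913 pairs. With 18 pairs a count of 0 says nothing on the list. The called genes were Fmr1, the gene of fragile X syndrome (1.81 ± 0.42), the small GTPase gene Rac1 (1.33 ± 0.34) and Elavl1, which encodes HuR (1.05 ± 0.31). Only in Fmr1 of these did the second probe set differ downward (−0.13), and it did not pass. Ccnd1 had a difference of 1.06 ± 0.44 and did not pass. The count was 0 without HuD array 1 and 1 without IgG array 2.

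Of 19 tested genes of the cleavage and polyadenylation machinery 5 rose, 5 fell and 9 did not pass, where 16.1% of all genes rose and 28.4% fell. The poly(A) polymerase Papolg (2.28) and the cleavage factor Cpsf6 (1.69) rose, and Wdr33, which recognises the polyadenylation signal, fell (−1.90). Of 12 with a testable pair 6 were called divergent and 6 had opposite signs, with a median absolute pair difference of 0.94, where 17% of all pairs were called, 24.5% had opposite signs and the median was 0.45. Wdr33 had a second probe set at 0.55 (pair difference −2.45 ± 0.49). Rbbp6, named after its values were seen, was the 1 gene of the list with opposite calls, at 1.47 and −0.95 (2.41 ± 0.34).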

How the data were processed

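Signals of 6 Affymetrix arrays were used as deposited by the authors, as linear intensity values per probe set. Which software and genome build lie behind them is not given in the sources used here. Their mean signal after trimming 2% at each end was the same on all arrays, and no detection calls were used. Values were taken as log2(signal + 32), and probe sets below the median of mean log2 values were not tested, which left 22518. Groups were compared with limma 3.58.1 (R 4.3.3) in 1 fit over all 6 arrays with a mean-variance trend, for probe sets and for the pair difference of each gene. There were 3 residual degrees of freedom, with 9.1 (probe sets) and 7.4 (pairs) from the prior. Calls are at a Benjamini-Hochberg adjusted p of 0.05 over all features tested. The input, with 1 array, was assumed to vary like the pulldowns. Arrays were numbered within groups as deposited, which pairs none. The fit of pair differences was tested on simulated data. The members and lists were chosen with earlier results of these data known. Genes were named by rule: all 10 members, the 6 other opposite pairs of largest difference, the 4 largest of the known 3′ ends, and up to 3 of each list of relatives and of the machinery by change of the brightest probe set. Cell type markers came from listed genes, and those named were picked to show the range of input levels. The called glial and neuronal genes were all that passed. Gene names come from the platform annotation, and RefSeq's GRCm38.p6 table gave neighbours only. No sequence was used.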

Additional observations from a re-analysis of the deposited data

How the results depend on the processing

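The pair differences of the 10 genes had 159 values under the alternatives, of which 57 equalled the original value and say nothing on stability. Of the 102 others 100 kept direction and call. Actb has no value with both probe sets above the upper quartile, which its second is not. Sod2 lost its call with the pair brightest on the input (0.116), and Actb turned to −0.215 with array controls counted, an alternative added after seeing the data. The second probe set of Sod2 turned to 0.296 with 75th percentile centring and to between −0.512 and 0.472 with single arrays left out (0.147 without HuD array 1, 0.472 without IgG array 2). Pairs divergent between HuD and IgG (833) numbered 373 with both probe sets above the upper quartile, and 400 to 701 with single arrays left out. Between HuD and input (366) they numbered 568 without a filter, 167 above the upper quartile, 138 with the title suffix as a block, and 189 to 540 with single arrays left out, the low values being without HuD array 1 (189) and HuD array 3 (199). Between IgG and input (0) they numbered 1 with a pseudocount of 64 and 4 above the upper quartile. Pairs with opposite calls (80) numbered 52 with quantile normalization, 41 with 75th percentile centring, 34 without a filter, 51 above the upper quartile, and 24 to 80 with single arrays left out. Of the 10 genes (7) these were 6 with quantile normalization, 4 with that centring and 4 without a filter. They were 6 above the upper quartile, where Actb has no pair, and 4 to 6 with single arrays left out. Probe sets called lower (5861) numbered 3755 with quantile normalization, 2829 with 75th percentile centring, 3596 above the upper quartile, and 3194 (without HuD array 1) to 6046 with single arrays left out. Relatives called lower (13) numbered 7 without a filter and 8 to 13 with single arrays left out, 8 being without HuD array 1. Known 3′ ends called divergent (3) numbered 5 with a pseudocount of 64, 1 with quantile normalization, and 0 to 3 with single arrays left out. The title numbers give only 2 pairs of HuD and IgG arrays, whose deviations correlated at −0.04 and 0.309, and they also share a title suffix. The labels do not say what either marks, and with 2 pairs a pairing was not established. With that replicate block, in which HuD array 2 has no partner, 782 pairs were divergent and 98 had opposite calls, 8 of them among the 10 genes, Nip7 being added with its second probe set at −0.904. Precision is limited by the few arrays. The causes of these changes were not tested.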
